A study of Mus musculus with 12 samples.

Results

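The clustered protocadherin genes Pcdha, Pcdhb and Pcdhg lie one after another on mouse chromosome 18 (mm10), and their DNA methylation in the brain is described here. A CpG site, meaning the cytosine of a CpG on 1 strand, was taken as a member where it lay in this stretch and had at least 10 reads in at least 6 of the 12 libraries. By this rule, 1660 of the 2156659 sites of the series that passed the same minimum were members, between chr18:36932330 and chr18:37847157. They covered 1028 CpG dinucleotides, with 870 sites on the plus and 790 on the minus strand, and 477 of them had reads in all 12 libraries. Each site was assigned by GENCODE vM21 to the variable exon of a protocadherin gene (1339 sites), to the 1000 bp before a gene's start, called the promoter (52 sites), or to a constant exon (5 sites). The other 264 sites lay elsewhere in the stretch, 63 of them at Taf7, a general transcription factor gene located between Pcdhb and Pcdhg.

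The Pcdha and Pcdhg genes share a design in which every gene has its own promoter and 1 large variable exon, which is spliced to a set of constant exons at the end of the cluster. The variable exon encodes the cadherin repeats outside the cell, and the constant exons encode a common cytoplasmic end, whereas Pcdhb genes have no constant exons. Individual neurons are known to use different combinations of the alternate genes, a choice that is made separately on each chromosome copy and that is linked to DNA methylation and to binding of CTCF at the promoter. The C-type genes (Pcdhac1, Pcdhac2, Pcdhgc3, Pcdhgc4 and Pcdhgc5), at the ends of Pcdha and Pcdhg, follow other rules and several of them are active in most neurons. The proteins mediate recognition between membranes of the same cell and between neurons.

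The data came from RRBS, bisulfite sequencing of the CpG-rich fraction of the genome that is released by a restriction enzyme. Each of the 12 libraries was made from a dissection of 1 mouse containing hippocampus and cortex. The wild type group (Wt, n = 4) held 3 libraries labelled female and 1 labelled male, and the Tg2576 group (Tg, n = 8) held 4 of each sex, all given as 11-month old. Tg2576 mice carry human APP with the Swedish double mutation, expressed under a prion protein promoter, and develop amyloid-β plaques, but no tau tangles. The labels give no other agent or allele and no cell sort, so that each level is an average over neurons, glia and other cells, and over both chromosome copies of each cell.

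Total coverage ranged from 33619981 to 131446104 reads over sites per library, and the libraries held 830 to 2186 of the sites in the stretch. At sites on chromosome X, the library labelled Wt male had a mean level of 19.9%, whereas the 4 Tg libraries labelled male had 5.50 to 5.67% and the libraries labelled female 20.7 to 23.0%. Results that rest on this library are therefore given with and without it. Of 19 promoters of marker genes chosen to check the tissue, only 4 had enough sites. The promoter of the neuronal gene Snap25 had a mean level of 2.67% and that of Slc17a7 0.904%, the oligodendrocyte gene Mbp had 12.5% and the astrocyte gene Aldh1l1 26.1%. Over the 12 libraries, Mbp ranged from 3.17 to 21.8% (4 sites) and Aldh1l1 from 3.65 to 49.6% (7 sites). Snap25 ranged from 1.11 to 4.07% and Slc17a7 from 0 to 3.21% (12 sites each). No marker promoter of liver, blood or germ line was measured.

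RRBS reached the clusters unevenly. Of 58 genes, 44 had at least 1 site and 40 had at least 3 in the variable exon. The C-type genes were covered best, with 199 of 540 exonic CpGs measured (36.9%), followed by the alternate Pcdhg genes with 397 of 1908 (20.8%) and the alternate Pcdha genes with 117 of 1419 (8.25%). In Pcdhb, only 92 of 1801 CpGs (5.11%) were measured. No member site was found in Pcdha6, Pcdha7, Pcdha10, Pcdhga6 or 10 Pcdhb genes, namely Pcdhb4, Pcdhb5, Pcdhb6, Pcdhb8, Pcdhb9, Pcdhb10, Pcdhb11, Pcdhb14, Pcdhb19 and Pcdhb21. The exons of neighbouring genes are similar in sequence, and how far this lowered the number of uniquely placed reads was not tested.

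The variable exons of the alternate genes were partly methylated. Over 985 sites of 39 genes the mean level was 44.3%, and 88.1% of these sites had a level between 10 and 90%. The mean was 47.2% in Pcdha (192 sites), 63.2% in Pcdhb (148 sites) and 39.1% in Pcdhg (645 sites). Within Pcdhg, the A and B subfamilies, which alternate along the cluster, had means of 38.7% (443 sites) and 39.95% (202 sites). At sites covered in all 12 libraries, the A subfamily was the higher, with library levels of 34.4 to 40.3% (73 sites), against 26.6 to 32.2% in the B subfamily (75 sites), so that the order of the 2 subfamilies changed with the sites used.

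The variable exons of the 5 C-type genes differed from this pattern, with a mean level of 6.55% over 354 sites and only 17.8% of sites between 10 and 90%. At sites covered in all 12 libraries, the C-type level averaged 5.63% ± 0.969 (SD, n = 12) and ranged from 4.48 to 8.07%, and the level of the alternate genes was 40.6% ± 1.46 (SD, n = 12) and ranged from 36.8 to 42.6%. The ranges did not overlap, so that the C-type exons were lower in 12 of 12 libraries.

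As background, first exons of all other autosomal genes had a mean level of 3.80% and a median of 0.641% over 561442 sites. Of these sites, 4.12% lay between 10 and 90% and 94.7% under 10%. Later exons of those genes were nearer to the alternate protocadherin exons, with 40.6% of 217931 sites between 10 and 90%, but a larger share over 90% (20.1%). Among the alternate protocadherin exons, 5.99% of sites were over 90%. The C-type exons, with 82.2% of sites under 10%, lay between the alternate exons and the first exons of other genes. These are descriptions of sites, which share libraries and neighbours, and no test was made of them.

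**Figure D1:**
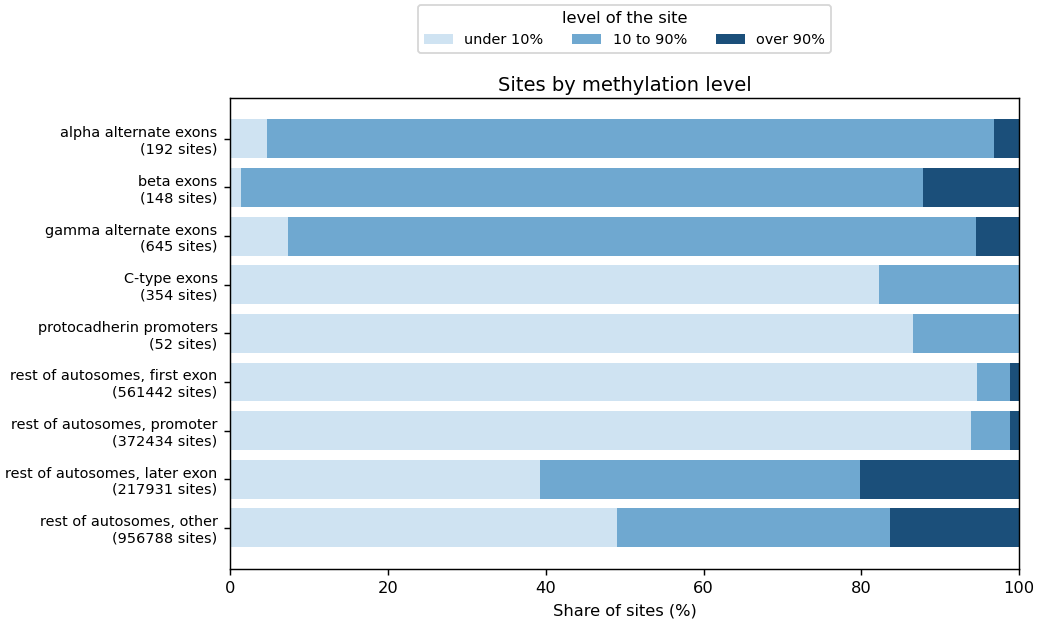
Share of sites (x axis, %) with a methylation level under 10%, 10 to 90% and over 90%, for protocadherin classes and for the same kinds of sites in the rest of the autosomes. Sites between 10 and 90% make up most of the alternate and Pcdhb exons (88.1% over all of them), but 17.8% of C-type exons and 4.12% of first exons of other genes.

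The C-type genes did not all behave alike. Pcdhgc4, which supports the survival of neurons, had the lowest exon level, 1.39% over 29 sites, and none of these sites exceeded 5.52%. Pcdhgc3, a regulator of dendrite branching, had 1.85% over 114 sites, of which 113 were under 10%. Pcdhac2, known for the spacing of serotonergic axons, had 2.43% over 105 sites, of which 100 were under 10%. Pcdhac1 was higher, at 11.2% over 64 sites, and held both sites near 0 and sites up to 57.9%.

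Pcdhgc5, the last gene of the cluster, had an exon level of 26.1% over 42 sites, with 38 of them between 10 and 90%. At its 18 sites covered in all 12 libraries, the library levels ranged from 19.8 to 46.7%, with a mean of 28.6% ± 7.22 (SD, n = 12). The corresponding library levels were 0.449 to 5.97% in Pcdhgc3 (49 sites), 0.124 to 4.94% in Pcdhgc4 (21 sites), 2.20 to 4.58% in Pcdhac2 (45 sites) and 1.16 to 8.53% in Pcdhac1 (16 sites). Every library was thus higher in Pcdhgc5 than any library in the other 4 C-type genes, while the ranges of those 4 overlapped one another. The measured portions differed, however, since 33 of the 42 Pcdhgc5 sites lay beyond 1500 bp, whereas those of Pcdhgc4 lay 193 to 564 bp from the start. Beyond 1500 bp, Pcdhac1 was at 38.8% (8 sites) and Pcdhgc5 at 29.4%, and within 1000 bp Pcdhac1 was at 7.25% (56 sites) and Pcdhgc5 at 14.1% (9 sites). The level of Pcdhgc5 was also within the range of the alternate Pcdhg genes.

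**Figure D2:**
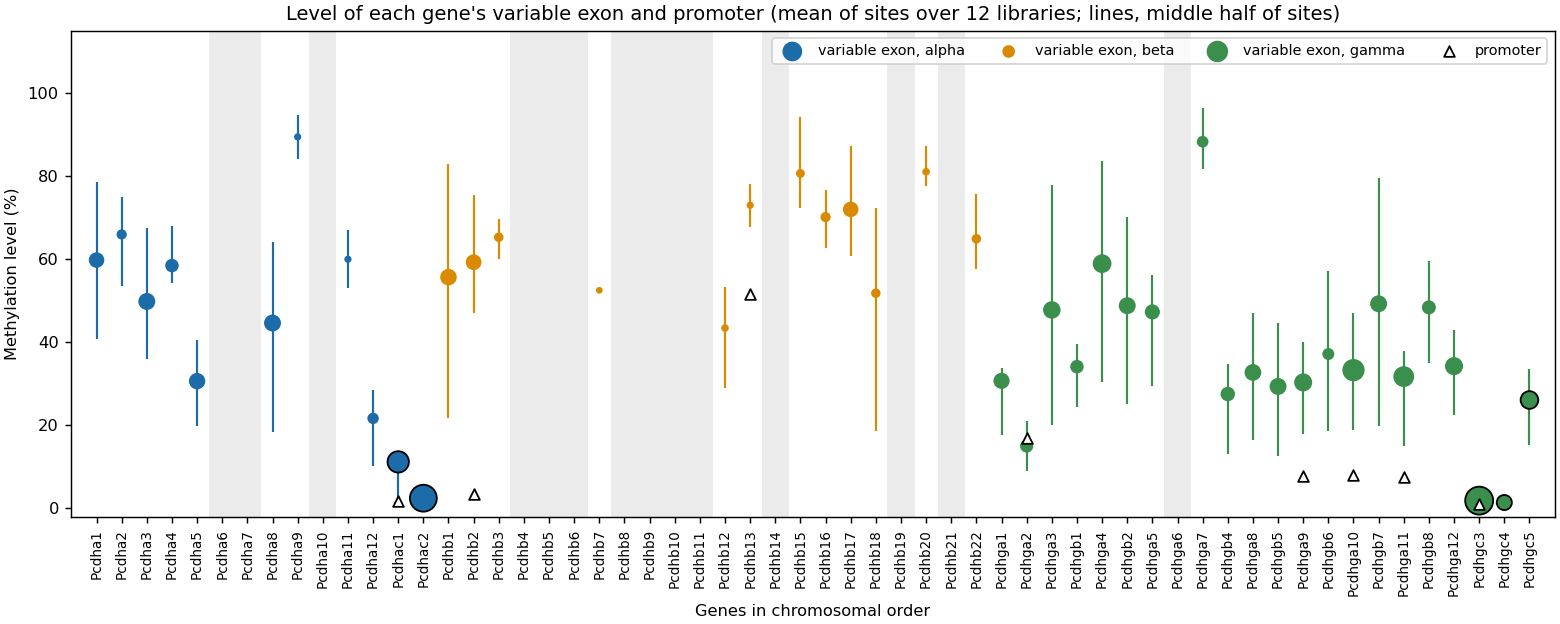
Methylation level (y axis, %) of the variable exon (circles, larger with more sites) and promoter (triangles) of each gene in chromosomal order, with lines for the interquartile range of sites, black outlines for the C-type genes, and grey bands for the 14 genes with no member site. Pcdhac2, Pcdhgc3 and Pcdhgc4 lie between 1.39 and 2.43%, and Pcdhgc5 at 26.1%.

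Among the Pcdha exons with at least 3 sites, the highest levels were those of Pcdha2 (66.02%, 10 sites), Pcdha1 (59.8%, 31 sites) and Pcdha4 (58.5%, 22 sites), all alternate genes at the start of the cluster. The lowest were the C-type Pcdhac2 and Pcdhac1, followed by Pcdha12 (21.7%, 14 sites), the alternate gene next to them. The measured sites of Pcdha2 lay 2310 to 2449 bp from the start and those of Pcdha12 212 to 800 bp, so that these levels come from different portions of the exon.

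Among the Pcdhb exons with at least 3 sites, Pcdhb20 (81.1%, 3 sites), Pcdhb15 (80.7%, 6 sites) and Pcdhb17 (72.05%, 31 sites) were the highest. Pcdhb12 (43.5%, 3 sites), Pcdhb18 (51.9%, 8 sites) and Pcdhb1 (55.7%, 36 sites) were the lowest. Single sites of 1 gene could differ widely, from 12.5 to 96.1% in Pcdhb1.

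Among the Pcdhg exons with at least 3 sites, Pcdhga7 stood highest at 88.4%, with 9 of 15 sites over 90%, followed by Pcdhga4 (59.0%, 48 sites) and Pcdhgb7 (49.3%, 38 sites). The lowest were Pcdhgc4 and Pcdhgc3 and, among alternate genes, Pcdhga2 (15.0%, 21 sites). The 15 sites of Pcdhga7 lay 1492 to 1683 bp from the start, while those of Pcdhga2 lay within 259 bp of it.

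Because the measured positions differed between genes, levels were also compared at matched distances from the start. In the first 500 bp of the exon, the mean level was 37.1% in alternate Pcdha (82 sites, 4 genes), 32.9% in Pcdhb (31 sites, 6 genes) and 20.5% in alternate Pcdhg (252 sites, 15 genes), but 3.56% in C-type genes (174 sites, 5 genes). By gene, these levels spanned 12.6 to 53.7%, 14.2 to 73.05%, 11.5 to 30.3% and 0.699 to 14.1%, the last of these being Pcdhgc5. At sites covered in all 12 libraries in this portion, the library levels of alternate Pcdhg ranged from 15.6 to 21.4% and those of C-type genes from 0.865 to 2.17%. The difference between alternate and C-type genes, each taken as a set, was therefore also present next to the start. It did not hold for every gene, since Pcdhgc5, at 14.1%, lay within the span of the alternate Pcdhg genes.

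In Pcdhb and alternate Pcdhg, the level was higher further into the exon than in its first 500 bp, but did not increase steadily. In alternate Pcdhg it was 44.8% at 500 to 1000 bp (154 sites) and 57.5% at 1000 to 1500 bp (154 sites), followed by 47.2% at 1500 to 2000 bp (68 sites) and 45.6% at 2000 to 2500 bp (8 sites). In Pcdhb it was 78.4% at 1000 to 1500 bp (43 sites), then 65.5% (40 sites) and 66.8% (21 sites) in the next 2 bins. Alternate Pcdha exons were at 39.4% at 500 to 1000 bp (35 sites) and 61.6% at 2000 to 2500 bp (70 sites). The bins did not all hold the same genes. C-type exons were at 1.71% at 500 to 1000 bp (65 sites) and 4.29% at 1000 to 1500 bp (70 sites), and at 41.2% at 2000 to 2500 bp, where only 16 sites of 2 genes were measured, and at 23.1% beyond 2500 bp (20 sites, all in Pcdhgc5). In 11 genes with at least 3 sites both within 1000 bp of the start and beyond 1500 bp, the distal portion was higher in 10, and the exception was Pcdha4. In Pcdhgb7 the level went from 11.5% (10 sites) to 65.6% (11 sites), and the distal portion was higher in 11 of 11 libraries with both. In Pcdhac1 it went from 7.25% (56 sites) to 38.8% (8 sites), also in 11 of 11 libraries. Pcdhgc3 was low in both portions, at 1.15% (79 sites) and 2.31% (4 sites), and its distal portion was higher in only 4 of 8 libraries. The libraries were also divided in Pcdhgb1 (higher in 8 of 11) and Pcdhgc5 (8 of 10).

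**Figure D3:**
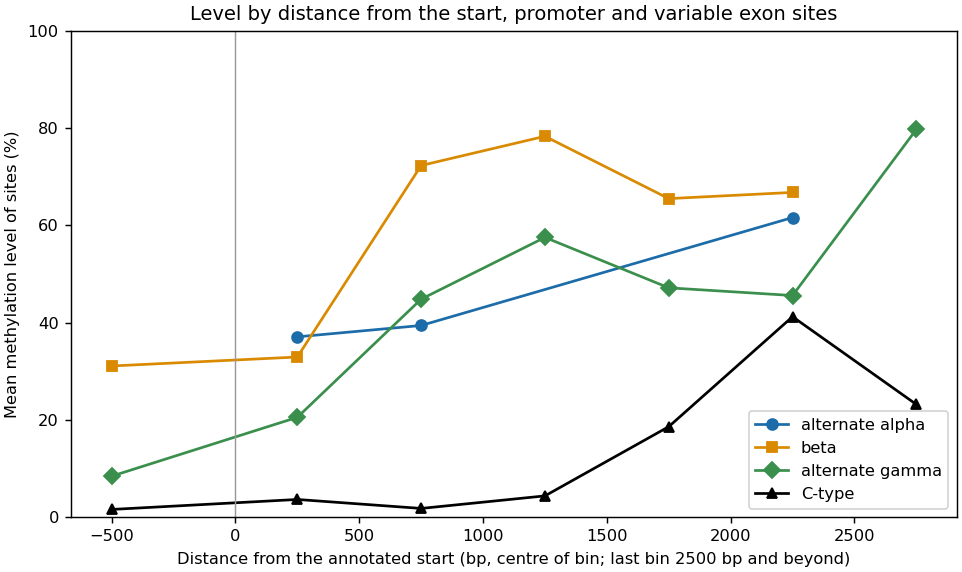
Mean methylation level of sites (y axis, %) by distance from the annotated start (x axis, bp), in bins with at least 5 sites, for alternate Pcdha, Pcdhb, alternate Pcdhg and C-type genes. In the first 500 bp of the exon the 3 alternate or Pcdhb sets lie at 20.5 to 37.1% and the C-type set at 3.56%.

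Promoters were measured in 8 genes only. The C-type promoters of Pcdhac1 (1.75%, 20 sites, the only ones in Pcdha) and Pcdhgc3 (1.12%, 13 sites) had no site over 10%. The alternate Pcdhg promoters averaged 8.35% over 12 sites, 9 of them in Pcdhga11 (7.52%), with 1 site each in Pcdhga2, Pcdhga9 and Pcdhga10. The 2 Pcdhb promoters were unlike each other, with 3.52% in Pcdhb2 (3 sites, 16 to 20 bp before the start) and 51.7% in Pcdhb13 (4 sites, 60 to 121 bp before the start). The library levels of the Pcdhb13 promoter ranged from 40.4 to 61.0%, so that it was partly methylated in every animal. Promoter sites in the rest of the autosomes had a mean of 4.09% and a median of 0.649% (372434 sites).

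The constant exons had 5 sites, all in Pcdha and none of them in all 12 libraries. Their levels spanned 39.5 to 69.8%, with a mean of 56.5%. In Taf7, the neighbouring gene that belongs to no protocadherin family, the mean over 63 sites was 3.94% and 96.8% of the sites were under 10%. The remaining 201 sites, outside Taf7 and outside the exons and promoters of the protocadherin genes, had a mean level of 61.3%. At the 28 of these sites covered in all 12 libraries, the mean was 33.3%.

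Levels and sequence were compared over genes. The motif CGCT, a short core of the element shared by many protocadherin promoters, was searched on both strands (CGCT or AGCG) from 250 bp before to 50 bp after each start in the mm10 reference. It was present in 56 of 58 protocadherin genes (96.6%) and in 68.6% of 21694 other protein-coding genes. All 5 C-type genes had the motif. So short a motif was also present in most other genes, so its presence cannot show whether the full element separates C-type from alternate genes. The full element was not searched. The same windows held a median of 7 CpGs in protocadherin genes, 12 in the C-type genes and 13 in other protein-coding genes. Across 40 genes with at least 3 exon sites, the exon level and the observed-to-expected CpG ratio of the exon had a Spearman's ρ of -0.30 (Pearson's r = -0.30), and without the C-type genes ρ was -0.43 (r = -0.44, 35 genes). These genes share libraries and sequence, and the values are descriptive.

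The partial levels were alike on both strands. In 587 CpGs with both strands measured in at least 6 libraries, the strands differed by a median of 3.09 points and correlated with r = 0.97. Among the 358 CpGs with a level between 10 and 90%, the median difference was 5.46 points, against 5.57 points for 116653 CpGs in the rest of the autosomes.

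The spread among animals exceeded counting error, to about the same degree as elsewhere. The dispersion, which is 1 where reads alone account for the spread among animals of a group, had a median of 3.31 over 226 member sites with a pooled level of 10 to 90%, and 3.59 over 81435 such sites in the rest of the autosomes. In alternate Pcdhg exons it was 3.33 (129 sites), in Pcdhb exons 3.10 (43 sites) and in C-type exons 4.30 (19 sites).

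The question of the study was whether methylation differs between Tg and Wt mice. In the clustered protocadherin genes, the average level hardly differed between genotypes. Over the 397 protocadherin sites covered in all 12 libraries, the mean level was 24.3% ± 0.0610 (SD, n = 4) for the Wt libraries, compared with 24.3% ± 1.14 (SD, n = 8) for the Tg libraries. The 4 Wt libraries were at 24.3, 24.4, 24.2 and 24.3%, and the Tg libraries ranged from 21.9 to 25.5%, on both sides of the Wt values.

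By class, the alternate Pcdha exons were at 58.7% ± 5.61 in Wt and 59.9% ± 4.65 in Tg (14 sites), and the Pcdhb exons at 54.3% ± 4.06 and 55.8% ± 2.47 (47 sites). The alternate Pcdhg exons were at 34.6% ± 1.01 and 33.9% ± 1.73 (148 sites), and the C-type exons at 5.40% ± 0.596 and 5.75% ± 1.13 (149 sites), all SD with n = 4 and n = 8. Each of these 4 differences was smaller than the spread among Tg libraries, and the ranges of the groups overlapped. Promoters were at 9.02% ± 0.576 in Wt and 7.97% ± 0.972 in Tg (39 sites). This difference of -1.05 points was larger than the SD of either group, but the ranges overlapped. The library labelled Wt male was the highest of the Wt libraries, at 9.85%, and no value without it is given for all promoters together. The Pcdhg promoters alone differed by -0.559 points, and by 0.369 points in the opposite direction without the library labelled Wt male.

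**Figure D4:**
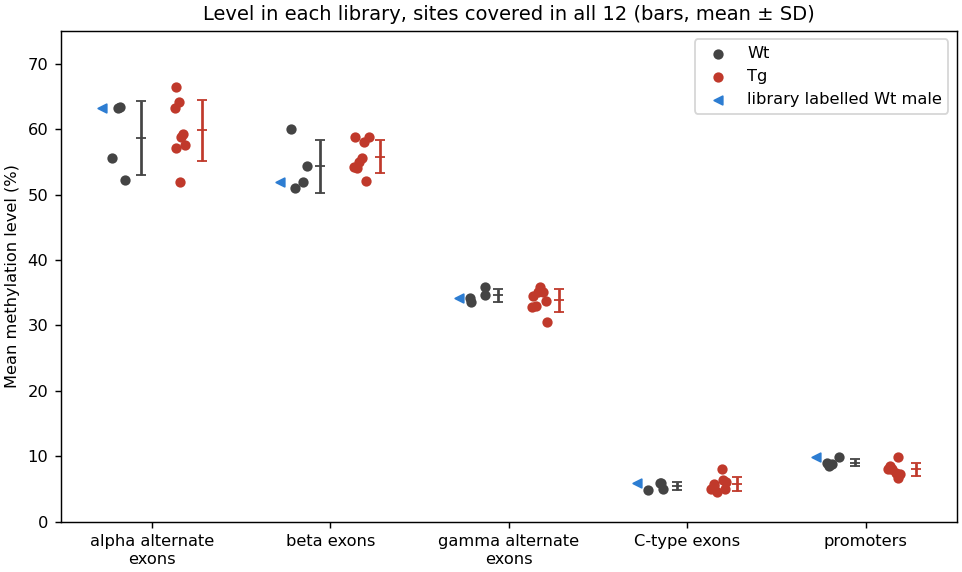
Mean methylation level (y axis, %) of each Wt and Tg library for 5 classes of protocadherin sites covered in all 12 libraries, with bars for mean ± SD, and a triangle that repeats the value of the library labelled Wt male. The Wt and Tg points overlap in every class.

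Single sites were tested with a binomial model and with an overdispersion model, in fits over 980547 sites of the genome. In the overdispersion model, the spread among animals with the same labels enters the error. The sex adjustment and the thresholds were those of the study. A site was called at an adjusted p under 0.1 and a difference of at least 10 points. The binomial model called 38 of 477 members (7.97%), against a background of 1.72% of all sites, with 19 higher and 19 lower in Tg. In the background, 0.928% of sites were called higher. At a pooled level of 10 to 90%, 34 of 226 members were called (15.0%), compared with 16.2% of other autosomal sites at that level. Without the library labelled Wt male, 28 members were called, 9 of them higher in Tg, against a background of 1.35% of all sites. The study reports far fewer differential sites in the genome under these thresholds than this binomial model called. The reason was not tested, so the binomial calls do not stand for the yield of the study's own analysis.

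The overdispersion model called 0 of 477 members, and its background was 0% of all sites. Its smallest adjusted p among members was 0.42. At an unadjusted p under 0.05 it gave 31 members (6.50%), against 10.9% of all sites, and limma on logit levels gave 26 of 477 members, against 5.19% of all sites, and called 0. At a pooled level of 10 to 90% the overdispersion model gave 3 of 226 members (1.33%), against 4.89% of other autosomal sites. No member site had ranges of Wt and Tg that did not overlap, against 0.0709% of all sites.

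The 38 sites were spread over the clusters rather than gathered in 1 gene. They included 34 sites of 21 protocadherin genes, with at most 3 in any gene (Pcdhga8, Pcdhgb5 and Pcdhgc5). The differences ran from a rise of 17.2 points to -22.1 points. Of 11 called sites whose opposite strand was tested as well, the opposite strand moved in the same direction in 6, and by 10 points or more in 0.

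By the rule for naming sites, the site with the smallest overdispersion p was chr18:37090224 (plus strand) in the exon of Pcdhac1, 211 bp from the start. Its level was 21.1, 7.41 and 20.3% in the 3 Wt females and 17.2% in the library labelled Wt male, and ranged from 0 to 13.3% in Tg, with a median of 3.83%. In 7 of 8 Tg libraries the level was below all Wt libraries, but the ranges overlapped, and a level of 0 at 30 to 102 reads allows up to 2.94 to 10%. The read-weighted difference was -13.1 points, with an adjusted p of 1.76e-05 in the binomial model and of 0.42 in the overdispersion model.

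The second site, chr18:36948116 in the exon of Pcdha3 (plus strand), had 79.3, 63.9, 77.4 and 68% in the 3 Wt females and the library labelled Wt male. In Tg it ranged from 71.4 to 100%, with a median of 82.6% (difference 13.3 points, adjusted p = 0.42 in the overdispersion model). The third, chr18:37720581 (plus strand) in the exon of Pcdhgb4, ranged from 24.4 to 55.6% in Wt and from 0 to 37.0% in Tg, with a median of 11.98% (-16.6 points, adjusted p = 0.43 in the overdispersion model). At this site, 3 Tg libraries were at 0, which at 10 to 55 reads per library allows up to 5.45 to 30%. Without the library labelled Wt male, its difference was -10.6 points. Both sites had Tg libraries inside the Wt range.

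The other 5 named sites lay in the exons of Pcdhb2, Pcdhgc5, Pcdhb20, Pcdhb1 and Pcdhga4. Pcdhb2 (chr18:37294866) had 5.56 to 13.2% in Wt and 12.9 to 40% in Tg, Pcdhgc5 (chr18:37821560) 39.3 to 63.0% and 40 to 80%, and Pcdhb20 (chr18:37505806) 41.7 to 76.5% and 61.5 to 100%. Pcdhb1 (chr18:37265330) had 33.3 to 64.7% in Wt and 11.1 to 64% in Tg, and Pcdhga4 (chr18:37686000) 28 to 70.6% and 37.5 to 80%. Their groups overlapped, and their adjusted p in the overdispersion model was 0.45 to 0.49. The difference at Pcdhb20 was 11.97 points with all libraries, 6.24 points without the library labelled Wt male and 19.3 points without the third Wt female.

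Reads summed over whole exons or promoters gave more depth per value. Of 26080 such regions with at least 3 sites in the genome, 34 were protocadherin regions, 30 variable exons and 4 promoters. The binomial model called 0 of the 34 (background 1.2%), although 14 had an adjusted p under 0.1 with a difference of less than 10 points. In the genome, 45.8% of regions had such an adjusted p at any difference. The overdispersion model called 0 (background 0%), and 3 of 34 (8.82%) had an unadjusted p under 0.05, against 6.64% of all regions. In 17 regions Tg was higher and in 17 lower, with a median difference of 0.130 points and a range from -5.55 to 6.43 points. Over the 26046 other regions the median was 0.0295 points.

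The region with the smallest p was the variable exon of Pcdhgb7 (chr18:37751600-37754193, 13 sites, 289 to 968 reads per library), an alternate gene of the B subfamily. Its level was 17.5, 13.3 and 15.2% in the 3 Wt females and 16.1% in the library labelled Wt male. In Tg it ranged from 17.99 to 26.3%, with a median of 22.5%. With reads summed in this way, all 8 Tg libraries were above all 4 Wt libraries, and this was the only one of 34 protocadherin regions without overlap, against 0.349% of all regions. The separation depended on the weighting. With the same 13 sites weighted equally, an alternative chosen after seeing the data, Wt ranged from 20.6 to 26.3% and Tg from 21.3 to 33.5%, so that the groups overlapped, and the difference was 2.82 points. The read-weighted mean was 15.5% ± 1.73 (SD, n = 4) for Wt, compared with 21.97% ± 3.08 (SD, n = 8) for Tg, with a read-weighted difference of 6.22 points. In the overdispersion model p was 0.00478 and the adjusted p 0.58, so that the difference did not pass the correction over the genome. Without the library labelled Wt male the difference was 6.32 points, and with a read minimum of 20 it was 2.89 points.

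The promoter of Pcdhgc3 (chr18:37805410-37806409, 13 sites) had 1.64, 0.738 and 0.472% in the 3 Wt females, and 5.43% in the library labelled Wt male. In Tg it ranged from 0 to 1.54%, with a median of 0.499%, and 3 Tg libraries were at 0, which at 329 to 1041 reads per library allows up to 0.288 to 0.912%. The difference of -1.49 points (adjusted p = 0.72 in the overdispersion model) rested on the library labelled Wt male, without which it was -0.187 points.

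The variable exon of Pcdhac1 (16 sites) had 9.02, 1.78 and 5.17% in the 3 Wt females and 4.47% in the library labelled Wt male, and ranged from 1.32 to 4.4% in Tg, with a median of 2.60%. The difference was -2.66 points (adjusted p = 0.75 in the overdispersion model), and -1.21 points without the first Wt female, which was the highest, or -1.46 points with sites weighted equally. The groups overlapped.

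The next 5 regions did not reach an unadjusted p of 0.05. The exon of Pcdhga7 was at 90.7% ± 2.47 (SD, n = 4) for Wt, compared with 85.4% ± 5.41 (SD, n = 8) for Tg, and that of Pcdha3 at 64.8% ± 6.25 and 67.4% ± 6.65. The promoter of Pcdhb13 was at 55.7% ± 3.01 and 49.5% ± 6.12, the exon of Pcdhb17 at 58.7% ± 8.35 and 66.3% ± 7.45, and the exon of Pcdhgc3 at 1.18% ± 0.413 and 1.81% ± 1.32. Their adjusted p in the overdispersion model was 0.80 to 0.83. The differences that follow compare the summed reads of each group and so are not the differences of these means. The difference at Pcdhb17 was 5.61 points with all libraries, 2.56 points without the library labelled Wt male and 9.45 points without the third Wt female. At Pcdha3 it was 1.80 points, 0.319 points without the library labelled Wt male and 4.92 points without the first Wt female. At the exon of Pcdhgc3 it was 0.508 points, and 0.141 points without the third Tg female.

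**Figure D5:**
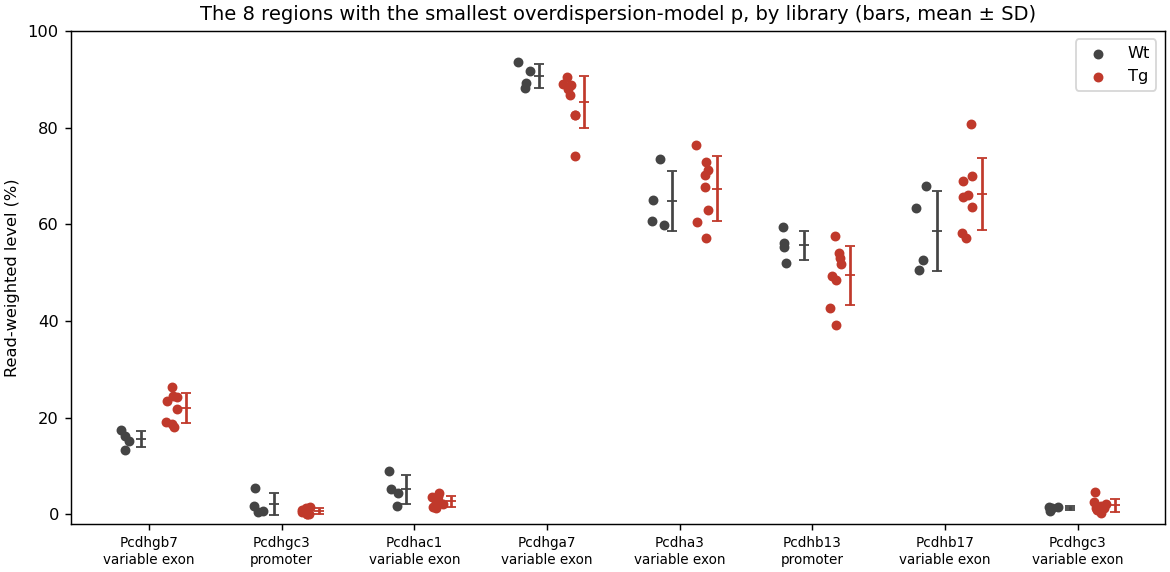
Read-weighted methylation level (y axis, %) of each Wt and Tg library in the 8 protocadherin regions with the smallest p in the overdispersion model, with bars for mean ± SD. In the exon of Pcdhgb7 the 8 Tg libraries (17.99 to 26.3%) lie above all Wt libraries (13.3 to 17.5%), which was not so with sites weighted equally (Tg 21.3 to 33.5%, Wt 20.6 to 26.3%), and in the other 7 regions the groups overlap.

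Genes that act with the clusters were examined in the same fit over regions. Of 20 regulators of the clusters, such as Ctcf, cohesin subunits and enzymes that write or erase methylation, 19 had 33 regions, of which the binomial model called 2 (background 1.2% of all regions) and the overdispersion model 0 (background 0%). Among the 2 called regions was the first exon of Smc1a, a cohesin subunit gene on chromosome X. In Smc1a, the library labelled Wt male was at 17.9%, the Wt females at 19.3 to 34.1%, the Tg females at 12.2 to 21.7% and all 4 Tg males at 0. The adjusted p in the overdispersion model was 0.70 for Smc1a. Among the libraries labelled female alone, Smc1a was at 25.7% ± 7.62 (SD, n = 3) for Wt, compared with 16.2% ± 4.01 (SD, n = 4) for Tg. The fit used the labelled sex, which put the library labelled Wt male together with the 4 Tg males at 0. No test of the female libraries alone is given, so the Smc1a call is not read as a genotype difference.

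The 10 measured non-clustered protocadherins (16 regions), 8 other large cadherins of the Celsr, Fat and Dchs families (18 regions) and 11 signalling partners such as the kinases Ptk2 and Fyn (23 regions) had 0 regions called by either model. At an unadjusted p under 0.05, the overdispersion model gave 3 regions among regulators, 2 among non-clustered protocadherins, 1 among other cadherins and 0 among signalling partners, against a background of 6.64% of all regions. Their median levels were 0.838, 1.82, 1.64 and 0.794%, and the median differences between Tg and Wt ranged from -0.0341 to 0.105 points.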

How the data were processed

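DNA methylation was measured by RRBS in 12 libraries. Per the labels and the study's methods, a commercial service made and sequenced the libraries, mapped the reads to mm10 with Bismark and called methylation, and the authors read the alignments into methylKit (versions are not given in the sources used here). The deposited files hold read counts for each cytosine (coverage, methylated C and converted T), 1 file per animal, with no normalization. The smallest coverage was 10 reads, and the authors kept strands apart.

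From these counts, 980547 sites on chromosomes 1 to 19 and X with reads in all 12 libraries were fitted, after removal of 11 duplicated positions. A logistic regression on genotype and labelled sex was run as a binomial model (likelihood-ratio test) and as an overdispersion model (deviance divided by the Pearson dispersion, never below 1, F test), with Benjamini-Hochberg adjustment over all sites or all 26080 regions. The code used numpy 2.4.6, scipy 1.17.1 and limma 3.58.1 and was tested on simulated data. Per the study, sex adjustment, FDR of 0.1 and 10 points were used. limma was run on log2 ratios of methylated to unmethylated reads with a pseudocount of 1 added to each.

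A level is methylated over all reads in percent. Levels by class are means of site levels over libraries. For genes the longest coding transcript of GENCODE vM21 was used, and the gene that this release names Pcdha11 a second time was taken as Pcdha10 after RefSeq GRCm38.p6. Where a level was 0, the limit is that of 3 reads. Intervals and limits cover counting error only, and PCR copies were not told apart. Replicates are separate animals, numbered in the order of the records, and a number pairs nothing.

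Named genes were the 5 C-type genes and, in each cluster, the 3 highest and 3 lowest promoters and variable exons with at least 3 sites. Named regions and sites were the 8 with the smallest overdispersion p, sites with a difference of at least 10 points and more than 1000 bp apart. Members, lists and rules were chosen with earlier results of these data known. Alternatives covered the read minimum, strands, coverage, sex term, female libraries, promoter length, weighting and leaving out each library. A table of differential sites that the authors made was not used here. The values of 1 region called among the regulators are not reported here.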

Additional observations from a re-analysis of the deposited data

Results flagged for a closer look

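In 48 groups of libraries (Wt or Tg, for 8 classes, 8 regions and 8 sites), 1 had a library far from the others, where about 1 in 20 groups is flagged by chance. The mean level of the Pcdhg promoters in the library labelled Wt male was 7.42%, against 3.50 to 3.85% in the 3 Wt females. The Tg libraries ranged from 1.77 to 6.09%, with a mean of 4.08%. Of the 20 sites, the 13 of Pcdhgc3 were at 5.78% in this library. Its X level was like that of libraries labelled female. Without this library, the difference between Tg and Wt in the Pcdhg promoters went from -0.559 to 0.369 points, and in the Pcdhgc3 promoter region from -1.49 to -0.187 points.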

How the results depend on the processing

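Under the alternatives, 0 sites and 0 regions of the clustered protocadherin genes were called by the overdispersion model in every setting that was run. The binomial model called 38 sites, and 28 to 42 when each library was left out (28 without the library labelled Wt male). It called 6 of 150 sites with a read minimum of 20 (0.475% of all sites), 124 of 1170 with sites in at least 3 Wt and 6 Tg libraries (4.11% of all), and 0 with a minimum of 25 points (0.0775% of all). Fewer or more sites were tested in the first 2. Of regions it called 0, also with each library left out (0 to 0), but 1 (Pcdhb20 exon, 11.6 points) with at least 1 site per region (2.17% of all regions), 1 (the same exon, 10.8 points) with sites in at least 3 Wt and 6 Tg libraries (1.33%), and 1 (Pcdha1 exon, 12.6 points) in the 7 libraries labelled female (1.55%). With sites in at least 3 Wt and 6 Tg libraries, the difference at the Pcdha3 exon was reversed, at -3.99 points.

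Levels moved with the choice of sites. With sites in all 12 libraries, the level was 59.5% in alternate Pcdha exons, 55.3% in Pcdhb exons, 34.1% in alternate Pcdhg exons, 5.63% in C-type exons, 35.4% in Pcdhb promoters and 12.3% at sites outside the protocadherin exons and promoters, including introns and Taf7 (other sites). With a read minimum of 20 these were 53.5% (Pcdha), 56.9% (Pcdhb), 35.8% (Pcdhg), 5.13% (C-type) and 27.3% (other sites). Read-weighted, they were 57.5% (Pcdhb), 36.2% (Pcdhg), 5.05% (C-type) and 27.6% (other sites). With strands summed, Pcdhb promoters were at 26.8% and alternate Pcdhg exons at 37.8%, and with promoters of 2000 bp those of Pcdhg were at 8.06%. The cause was not tested. In each of these settings the C-type exons stayed below the alternate and Pcdhb exons.

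Leaving out each library gave 46.9 to 48.6% in alternate Pcdha exons, 61.4 to 63.4% in Pcdhb exons, 38.7 to 39.4% in alternate Pcdhg exons and 6.29 to 6.60% in C-type exons. No difference between Tg and Wt in mean level moved by more than the spread between libraries, in 126 values under alternatives, although differences as small as these changed sign in some settings, that of the Pcdhg promoters without the library labelled Wt male (-0.559 to 0.369 points). No paired analysis was possible because the labels give no replicate numbers. Depth limits single sites, where 10 reads give steps of 10 points, and 14 genes had no site.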

Other observations

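The level over the 397 protocadherin sites was nearly equal in the 4 Wt libraries (SD 0.0610 points) and spread more in the 8 Tg libraries (SD 1.14 points). This did not hold in every class of exon. The Wt SD was larger than the Tg SD in alternate Pcdha exons (5.61 against 4.65 points) and Pcdhb exons (4.06 against 2.47). It was smaller in alternate Pcdhg exons (1.01 against 1.73) and C-type exons (0.596 against 1.13). Over the 397 sites, Tg male 1 was the lowest of the 12, at 21.9%, and Tg female 4 the highest, at 25.5%. A part of these 397 sites, which is no second observation, had the same ends. At the 212 protocadherin sites with a pooled level of 10 to 90%, these 2 libraries were at 36.1 and 42.2%. At 81435 such sites in the rest of the autosomes the ends were different libraries, namely the library labelled Wt male at 34.7% and Wt female 1 at 43.3%, with Tg male 1 at 38.2% and Tg female 4 at 36.9%. Tg female 4 had the smallest total coverage of the 12 libraries, 33619981 reads over sites, and Tg male 1 the next smallest, 44894320. The spread was noticed in these values and has no test.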
